A study of Mus musculus with 6 samples.

Results

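The transcripts of oxidative phosphorylation subunits were measured in 6 RNA sequencing libraries of a mouse tumour cell line, 3 with MAX restored and 3 controls. The genes were chosen by name. They are the symbols that begin with Ndufa, Ndufb, Ndufc, Ndufs or Ndufv and a number, the genes Sdha to Sdhd, and the symbols that begin with Uqcr, with Cox4 to Cox8 or with Atp5. This pattern took 84 of the 24391 annotated genes, of which 37 were assigned to complex I, 4 to complex II, 8 to complex III, 18 to complex IV and 17 to complex V. Enough counts for a test were found for 78 of the 84, and the other 6 are given with their counts where their complex is described. All 6 libraries came from mRPMaxKO, a line grown from an RPMax-/- lung tumour in mice of the strain label 129/SvJ; C57BL/6. RPMax-/- stands for tumours that lack Rb1, p53 and Max, so both groups share these losses. In the MAX restored group Max was returned from an inducible lentiviral vector, in a polyclonal pool kept after puromycin selection. The control group has the label control. Doxycycline for 4 days is worded alike for all libraries, and nothing there says if the control cells carried an empty vector or received the drug. The labels also do not say whether the replicates were separate cultures, so p-values measure the spread between these libraries, which may be technical.

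Oxidative phosphorylation is the last stage of cellular respiration, carried out in the inner mitochondrial membrane. Complexes I and II take electrons from NADH and succinate, complex III passes them from ubiquinol to cytochrome c, and complex IV hands them to oxygen. Complexes I, III and IV pump protons, and complex V, the ATP synthase, lets protons return and makes ATP. MYC proteins pair with MAX to bind DNA at the E-box CACGTG, and they are known to raise many nuclear genes for mitochondrial proteins. Subunits encoded by mitochondrial DNA were not analysed here.

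Max had 15979, 14933 and 13369 counts in the MAX restored libraries, against 639, 691 and 620 counts in the control libraries. These are 1343, 1332 and 1306 CPM (counts scaled to library size) with MAX restored and 62.9, 66.3 and 61.4 CPM in controls. They cover the whole gene, so they show more Max in the MAX restored libraries but not which part of Max the line has lost. Total counts were 10253303 to 11925909 in the MAX restored libraries and 10046899 to 10425210 in the control libraries. Control 1 stood apart from the other controls, with a chi-square per degree of freedom of 8.91 and 10.19 against them, while the other pairs of replicates gave 1.24 to 1.505. Of the 78 tested subunit genes, 53 were higher and 15 lower in control 1 than in both other controls. Rn45s, the precursor of ribosomal RNA, took 0.121% to 0.160% of counts with MAX restored, against 0.996% in control 1 and 0.187% and 0.109% in the other controls, and its part in the results was not tested. The summed level of 12 markers of neuroendocrine lung cells was 9979 to 10307 CPM with MAX restored and 9643 to 9832 CPM in controls. Markers of fibroblasts, immune cells and endothelium each summed to at most 3.32 CPM with MAX restored and 2.74 CPM in controls, with Lum, Cd3e, Adgre1 and Cdh5 at 0 in all libraries.

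Most subunit transcripts were modestly lower with MAX restored. Of the 78 tested, 46 fell and 7 rose by edgeR's quasi-likelihood test at an adjusted p under 0.05, and 25 did not pass. Over all 12664 genes tested, 32.3% were lower and 31.2% were higher by the same test. Groups without overlap were common, with 48 of the 78 subunit genes and 4285 of all 12664 genes separate and lower. Another 8 subunit genes and 4209 of all genes were separate and higher. The median log2 fold change, MAX restored over control, was -0.18 over the 78 subunit genes and -0.00 over all genes tested. Changes were small, since the subunit genes ran from -0.99 (Cox6a2) to 0.97 (Cox6b2) and none moved by 1 or more on the log2 scale. Together the 84 genes took 0.864%, 0.849% and 0.847% of the counts of the MAX restored libraries, against 0.971%, 0.951% and 0.936% of those of the control libraries. The groups did not overlap, and the ratio of their means was 0.896. In bulk RNA, fewer cells of a type and less RNA per cell cannot be told apart.

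Gene length moved with this result. The subunit genes are short, with a median summed exon length of 708 bases against 2970 bases over all genes tested. Over all genes tested, the shorter classes were lower with MAX restored. The median log2 fold change of all genes was -0.22 up to 500 bases, -0.18 over 500 and up to 1000 bases, -0.08 over 1000 and up to 2000 bases, and 0.10 over 8000 bases. Of all genes over 500 and up to 1000 bases, 45.3% were lower and 13.5% higher, and of the 37 subunit genes in that class 22 were lower. Up to 500 bases, 37% of all genes and 4 of 14 subunit genes were lower. Over 1000 and up to 2000 bases, 38.3% of all genes and 15 of 22 subunit genes were lower. Over 2000 and up to 4000 bases, 31.9% of all genes and 5 of 5 subunit genes were lower. Within the 78 subunit genes, the Spearman correlation of log2 fold change with exon length was -0.10. Subunit genes had medians of -0.12 (14 genes up to 500 bases), -0.18 (37 genes up to 1000), -0.22 (22 genes up to 2000) and -0.18 (5 genes up to 4000). The subunit median was thus above that of all genes in the shortest class, level with it in the next, and below it in the longer ones. When the trend with length was taken out of every library, 20 of the 78 subunit genes were lower and 22 higher, with a median of -0.03. In that fit 3894 of all 12664 genes tested were lower and 3962 higher, with a median of 0.01. Subunit genes thus had no excess of lower calls over all genes there. Of the 46 lower genes, 20 were still lower, 26 no longer passed and 0 turned higher, and all 7 higher genes were still higher. The cause of the trend was not tested. Without control 1, 43 subunit genes were lower and 8 higher, with a median of -0.16.

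**Figure D1:**
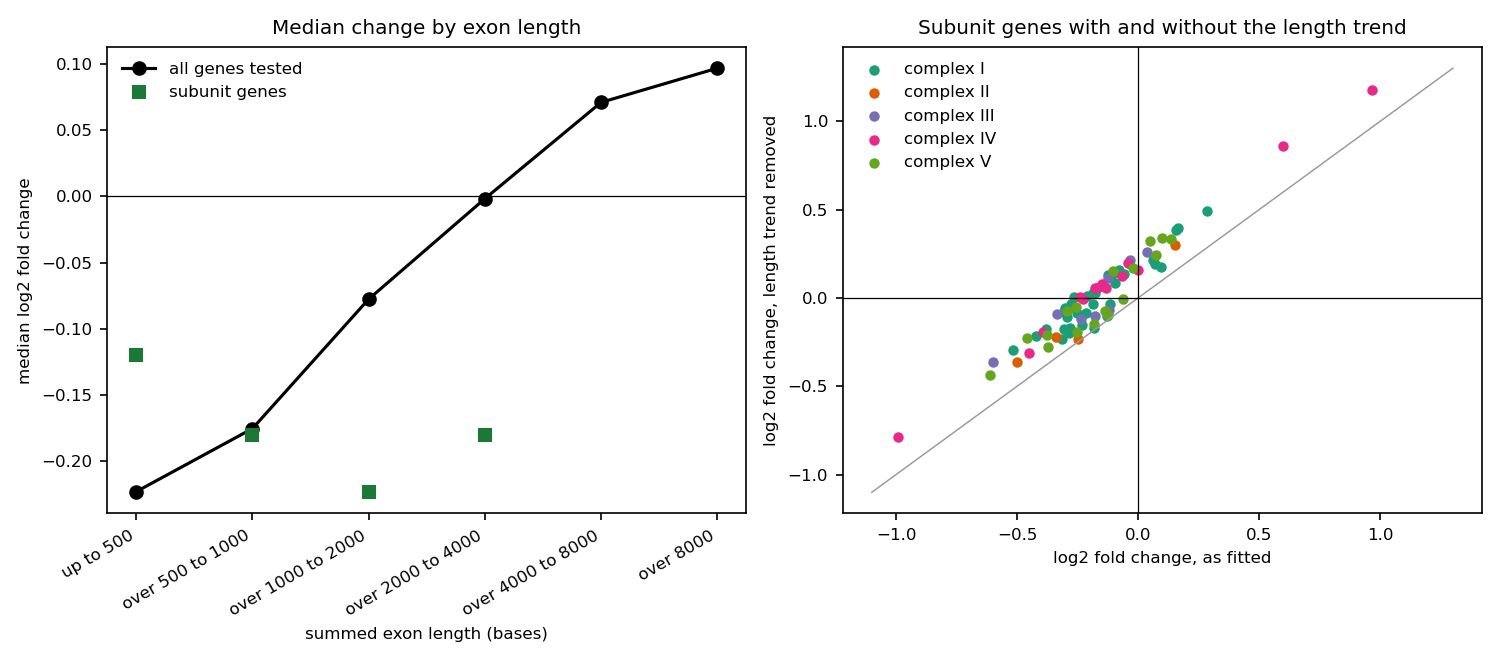
Left, the median log2 fold change (MAX restored over control) in classes of summed exon length in bases, for all genes tested (black line) and for subunit genes (green squares). The line climbs from -0.22 to 0.10 with length. Right, each tested subunit gene as fitted (horizontal) and after the length trend was removed (vertical), with colours for the complexes and a grey line of equal values. Nearly all points lie above that line.

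Summed counts were lower with MAX restored in all 5 complexes, but not evenly. As a share of counts, complex III had a ratio of 0.836 between MAX restored and control means, complex IV 0.866, complex II 0.876, complex I 0.888 and complex V 0.937. Complex III took 0.0791% ± 0.00165 of counts with MAX restored and 0.0947% ± 0.00269 in controls (SD, n = 3 each). Complex V, the complex with the most counts, took 0.321% ± 0.00178 with MAX restored and 0.342% ± 0.00982 in controls. Shares per exon length, in TPM, which divides counts by exon length and scales each library alike, gave the same lowest and highest complex, with a ratio of 0.842 for complex III and 0.988 for complex V, and 0.902 for complex IV, 0.926 for complex I and 0.935 for complex II. In complex V the groups overlapped in TPM, at 7936, 7841 and 7792 with MAX restored and 8256, 7887 and 7722 in controls. Without control 1 the ratio for complex V was 1.01, so the direction of its summed TPM rested on that library. The medians of the log2 fold change were -0.29 in complex II, -0.19 in complex I, -0.16 in complex IV, -0.15 in complex III and -0.14 in complex V. The order of the complexes therefore depended on whether genes were weighted by abundance, and differences between complexes were not tested.

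**Figure D2:**
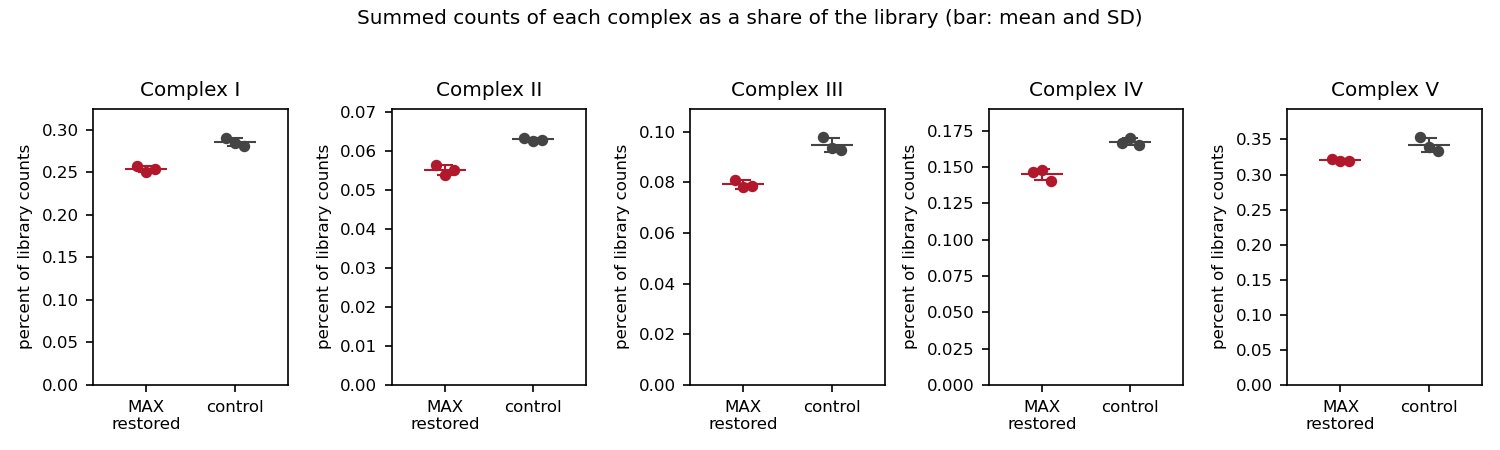
Summed counts of each complex as a percent of the library's counts, per library (points, libraries 1 to 3 from left to right), with mean and SD bars, MAX restored in red and control in grey. In each of the 5 panels the MAX restored points lie below the control points, and the ratio of the means is closest to 1 in complex V (0.937).

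**Figure D3:**
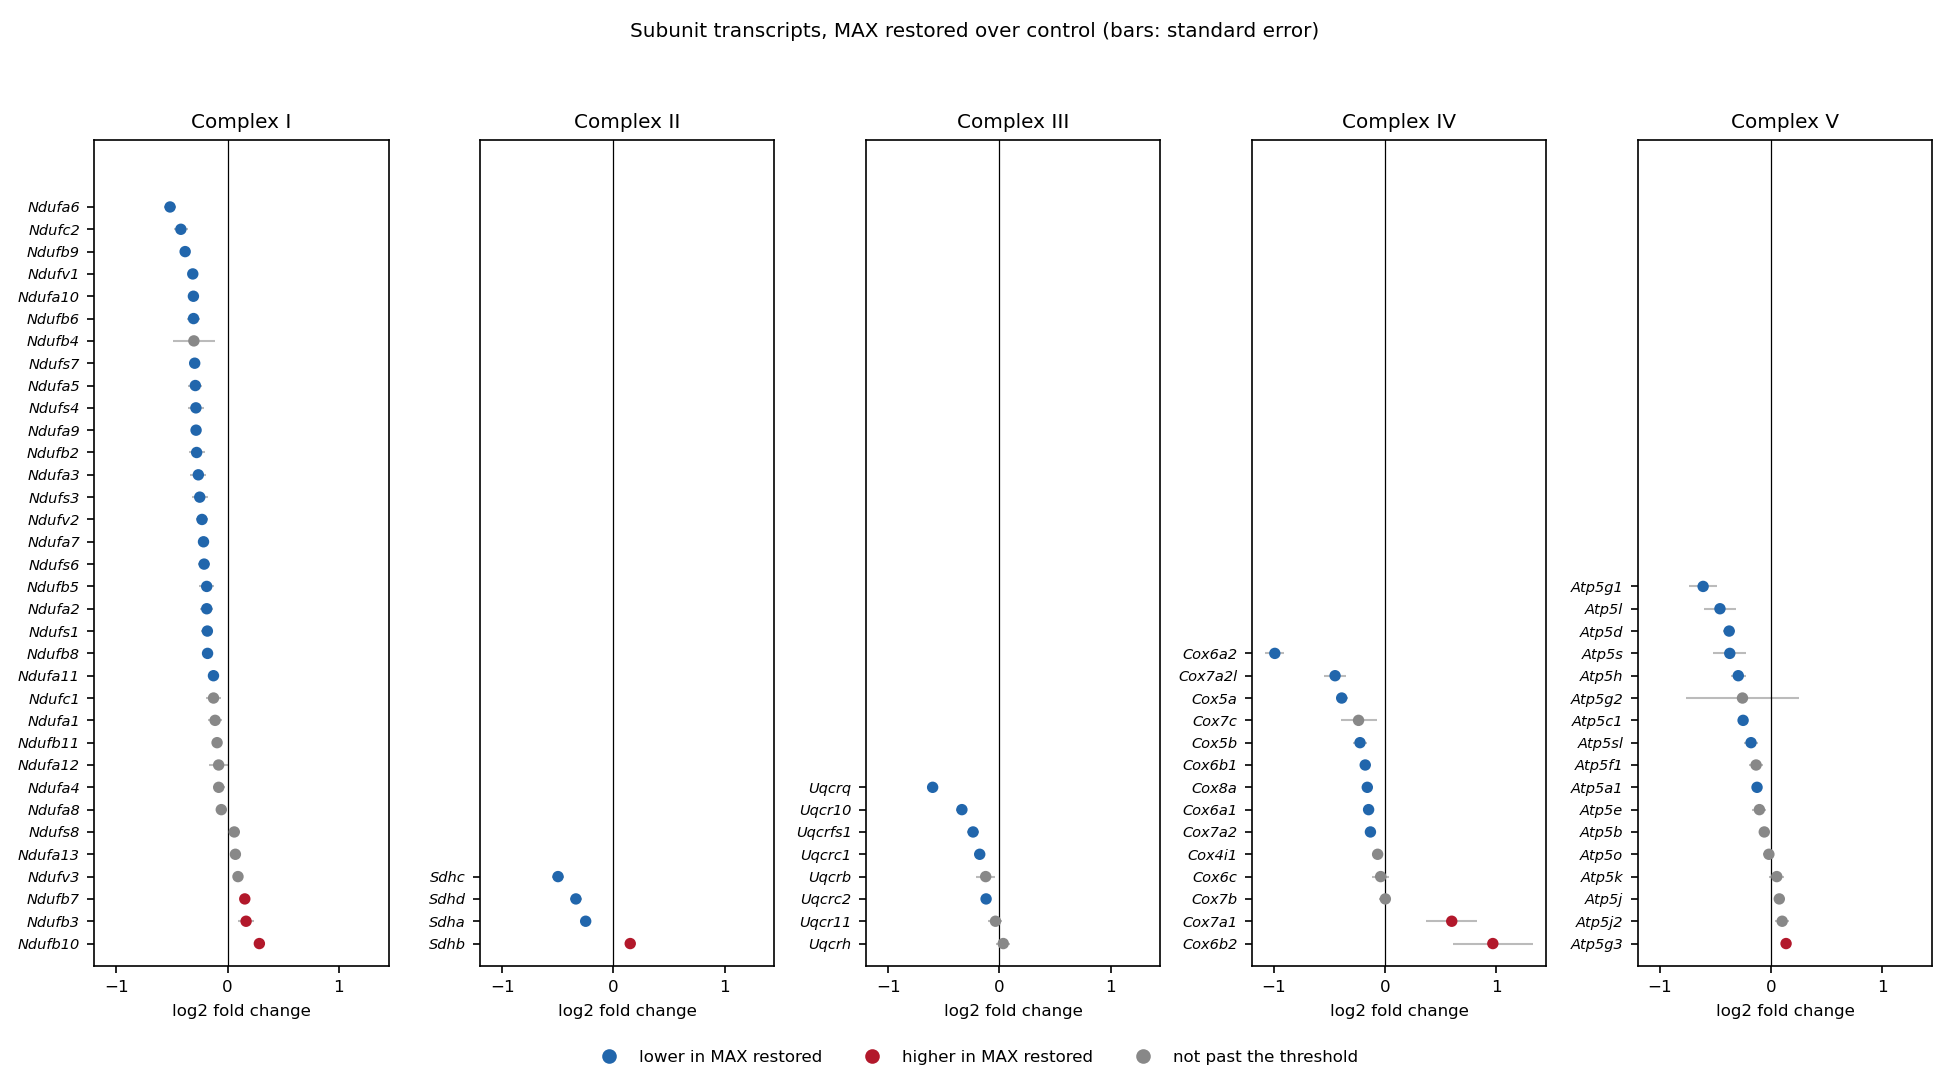
Log2 fold change of the tested subunit genes, MAX restored over control, by complex, with standard error bars. Blue points are lower, red points higher and grey points not past an adjusted p of 0.05, and all lie between -0.99 and 0.97.

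In complex I, the NADH dehydrogenase, 22 of 35 tested genes fell, 3 rose and 10 did not pass, and with the length trend removed 9 were lower and 8 higher. Without control 1, 20 were lower and 3 higher. The 5 that fell most by log2 fold change were all outside the core apart from Ndufv1. Ndufa6, an accessory subunit of the LYR motif family, had 52.6, 52.6 and 54.0 CPM in the MAX restored libraries, against 75.2, 80.4 and 72.2 CPM in the control libraries. The groups lay far apart, and the log2 fold change was -0.52 ± 0.05 (SE; edgeR adjusted p = 6.11e-08). Ndufc2, an accessory subunit of the membrane arm, had 81.1, 78.0 and 83.2 CPM with MAX restored, against 122, 104 and 97.7 CPM in controls (log2 -0.42 ± 0.06, edgeR adjusted p = 9.57e-06). Control 1 was its highest library, and all controls exceeded all MAX restored libraries. Ndufb9, another LYR family member, had 152, 152 and 150 CPM with MAX restored, against 203, 195 and 193 CPM in controls (log2 -0.38 ± 0.04). It had the highest level of the complex per exon length, 679 ± 4.47 TPM with MAX restored and 851 ± 11.4 TPM in controls (SD, n = 3 each). Ndufa10, an accessory subunit of the membrane arm, fell to 74.0 ± 0.0627 CPM with MAX restored, against 91.6 ± 0.831 CPM in controls (SD, n = 3 each; log2 -0.31).

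The nuclear core subunits, which hold the flavin and the iron-sulfur clusters and form the path of electrons to ubiquinone, had small differences. Ndufv1, which binds the flavin and takes electrons from NADH, had 152, 151 and 156 CPM with MAX restored, against 183, 189 and 199 CPM in controls (log2 -0.31 ± 0.05, edgeR adjusted p = 7.19e-06). The iron-sulfur subunits Ndufs7, Ndufv2 and Ndufs1 fell with log2 fold changes of -0.30, -0.23 and -0.18, and Ndufs3, which lies beside them, fell with -0.25. Ndufs8, an iron-sulfur subunit, did not pass, at 65.2 ± 2.52 CPM with MAX restored and 62.5 ± 3.08 CPM in controls (SD, n = 3 each). After removal of the length trend, Ndufv1, Ndufv2 and Ndufs1 were still lower, while Ndufs7 and Ndufs3 no longer passed. Ndufs8 was higher in that fit (log2 0.21, edgeR adjusted p = 0.00219).

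Of the 3 complex I genes that rose, Ndufb10, a membrane arm subunit, moved most. It had 110, 106 and 105 CPM with MAX restored, against 85.7, 91.7 and 86.7 CPM in controls (log2 0.29 ± 0.05, edgeR adjusted p = 2.61e-05), with every MAX restored library above every control. Ndufb7, also of the membrane arm, had 104, 107 and 101 CPM with MAX restored, against 97.0, 93.8 and 90.4 CPM in controls (log2 0.15 ± 0.05). Ndufb7 lies on chromosome 8 at 86090657 to 86095522 (mm9, plus strand), where the median log2 fold change of the neighbouring genes, up to 25 on each side, was 0.34, and the part of this position in its rise was not tested. Ndufb3 rose only just past the threshold (log2 0.17 ± 0.07, edgeR adjusted p = 0.0499).

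The other complex I genes that fell were Ndufb6, Ndufa5, Ndufs4, Ndufa9, Ndufb2, Ndufa3, Ndufa7, Ndufs6, Ndufb5, Ndufa2, Ndufb8 and Ndufa11, between -0.31 (Ndufb6) and -0.13 (Ndufa11) on the log2 scale. Besides Ndufs8, those that did not pass were Ndufb4, Ndufc1, Ndufa1, Ndufb11, Ndufa12, Ndufa4, Ndufa8, Ndufa13 and Ndufv3, between -0.30 (Ndufb4) and 0.09 (Ndufv3). Ndufa13 did not pass although the median of its neighbours on chromosome 8 was 0.45. Ndufa4, named for complex I but known as a subunit of complex IV, had 93.8, 87.5 and 92.2 CPM with MAX restored, against 104, 97.1 and 88.0 CPM in controls, and the groups overlapped. Its relative Ndufa4l2 had 9, 4 and 4 counts with MAX restored and 6, 6 and 10 counts in controls and was not tested. Ndufs5 was at 0 in all libraries, and 95.1% of its exon bases are shared with the annotated gene BC002163, so its level cannot be read from these counts.

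In complex II, succinate dehydrogenase, which is also an enzyme of the TCA cycle, 3 of 4 genes fell and 1 rose. This split was the same with the length trend removed, without control 1 and in each other setting tried. Sdhc, a membrane anchor that holds haem with Sdhd, had 74.5, 72.9 and 76.6 CPM with MAX restored, against 116, 97.6 and 103 CPM in controls (log2 -0.50 ± 0.06, edgeR adjusted p = 2.22e-07). Sdhd, the other anchor, had 64.1, 58.4 and 58.8 CPM with MAX restored, against 78.8, 78.1 and 72.5 CPM in controls (log2 -0.34 ± 0.05, edgeR adjusted p = 1.88e-05). Sdha, the flavoprotein that oxidises succinate, had 252, 241 and 249 CPM with MAX restored, against 285, 298 and 300 CPM in controls (log2 -0.25 ± 0.04, edgeR adjusted p = 1.61e-05). In each of these the groups were separate. Sdhb, the iron-sulfur subunit, went the other way, with 175, 167 and 166 CPM with MAX restored, against 156, 151 and 151 CPM in controls (log2 0.15 ± 0.05, edgeR adjusted p = 0.00695). Sdhb lies on chromosome 4 at 140517186 to 140535107 (mm9, plus strand), and its neighbours had a median of 0.50 on the log2 scale, the highest around any tested subunit gene. Sdhb rose less than this median, and the part of its position was not tested. Per exon length Sdhb was the most abundant of the 4, at 461 TPM with MAX restored and 399 TPM in controls, while Sdhd was the least, at 137 TPM with MAX restored and 167 TPM in controls.

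In complex III, the cytochrome bc1 complex, 5 of 8 genes fell, 3 did not pass and 0 rose. DESeq2 and limma voom also called 0 of them higher, and at an unadjusted p under 0.05 the count was 0. With the length trend removed, 1 was lower and 2 higher, and without control 1 the counts were again 5 and 0. Without the 3 genes that share over 10% of their exon bases or sequence with another gene (Uqcr11, Uqcrb and Uqcrc2), a setting chosen after seeing the data, the median was -0.24 in place of -0.15. Uqcrq, a small subunit beside cytochrome b, fell most. It had 151, 149 and 137 CPM with MAX restored, against 215, 225 and 222 CPM in controls, a 1.52-fold fall (log2 -0.60 ± 0.05, edgeR adjusted p = 1.28e-09), and its highest MAX restored library lay well under its lowest control. Of the complex III genes it alone was lower under all 16 alternatives of scaling, filter, test, threshold, length trend and left-out libraries. Per exon length it was also the most abundant of the complex, at 852 ± 41.3 TPM with MAX restored and 1244 ± 45.0 TPM in controls (SD, n = 3 each).

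Uqcr10, another small subunit, had 93.8, 90.6 and 87.5 CPM with MAX restored, against 118, 116 and 109 CPM in controls (log2 -0.34 ± 0.05, edgeR adjusted p = 5.8e-06). Uqcrfs1, the Rieske iron-sulfur protein, had 151, 147 and 149 CPM with MAX restored, against 193, 164 and 170 CPM in controls (log2 -0.24 ± 0.05). The core proteins Uqcrc1 and Uqcrc2, which face the matrix, fell by 0.18 and 0.12 on the log2 scale. Uqcrb, which helps form the ubiquinone site, gave -0.12, Uqcr11 gave -0.03 and the hinge protein gene Uqcrh, which helps cytochrome c dock, gave 0.04, and none of these passed. Uqcrh had 76.6 ± 5.44 CPM with MAX restored and 74.9 ± 6.27 CPM in controls (SD, n = 3 each).

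In complex IV, cytochrome c oxidase, 8 of 14 tested genes fell, 2 rose and 4 did not pass, while with the length trend removed 3 were lower and 5 higher and the median was 0.06 in place of -0.16. Without control 1, 9 were lower and 1 higher. Without the 7 genes that share over 10% of their exon bases or sequence with another gene, 3 were lower and 2 higher, with a median of -0.04. Those left out include Cox6a2 and Cox5a, which fell most among the subunits of the complex. Several of its subunits come as pairs of a widely used isoform and one known from muscle, lung or testis, and the members that moved most were of that second kind. Cox6a2, the heart and skeletal muscle isoform of subunit 6a, had 88.1, 96.0 and 80.7 CPM with MAX restored, against 144, 187 and 196 CPM in controls. It fell 1.99-fold, the largest fall among the tested subunit genes (log2 -0.99 ± 0.08, edgeR adjusted p = 3.76e-09). Control 1 was the lowest control and still above all MAX restored libraries, and without it the log2 fold change was -1.12. Cox6a1, the widely used isoform, had 254, 255 and 250 CPM with MAX restored, against 284, 280 and 277 CPM in controls (log2 -0.15 ± 0.04, edgeR adjusted p = 0.00186).

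Within the pair, Cox6a2 made up 22.0%, 23.3% and 20.7% of the summed TPM with MAX restored, against 29.1%, 35.1% and 36.4% in controls. The groups did not overlap. Cox6a2 lies on chromosome 7 at 135348949 to 135349880 (mm9, minus strand), and 69 of its 659 exon bases overlap Itgad, which had only 11, 17 and 19 counts with MAX restored and 13, 16 and 25 counts in controls. At 391 ± 33.2 TPM with MAX restored and 751 ± 127 TPM in controls (SD, n = 3 each), Cox6a2 was among the 5 most abundant genes of complex IV in controls. Markers of muscle cells were low in both groups. The 5 listed, Acta1, Myh1, Myh6, Ckm and Myog, summed to 2.44 to 3.61 CPM with MAX restored and 2.35 to 3.07 CPM in controls.

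**Figure D4:**
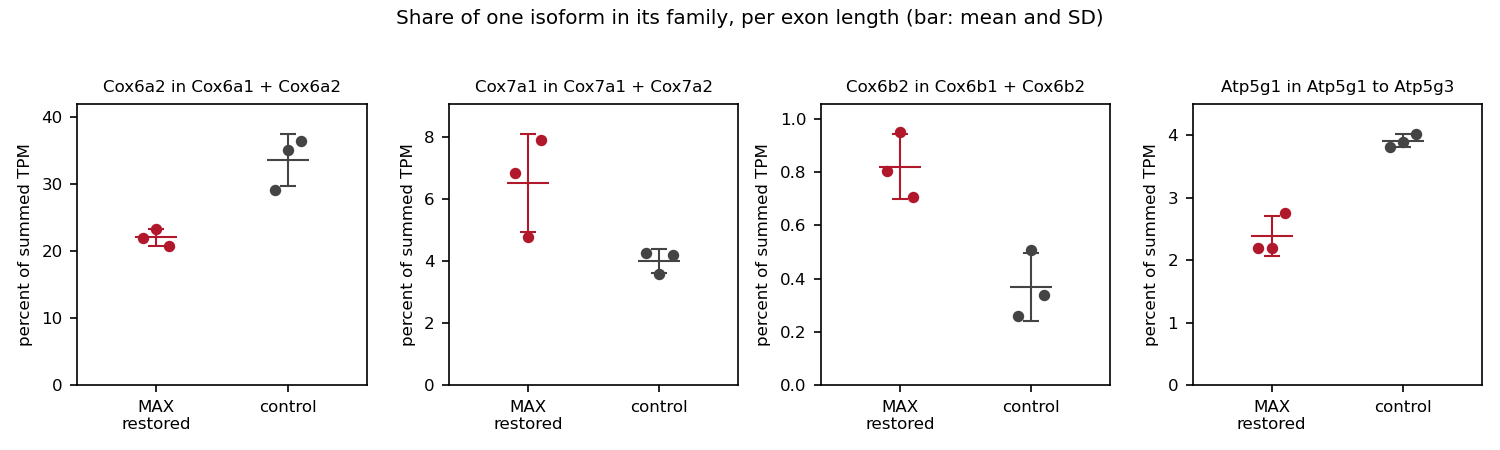
Share of an isoform in the summed TPM of its family, in percent, per library (points, libraries 1 to 3 from left to right), with mean and SD bars, MAX restored in red and control in grey. Cox6a2 and Atp5g1 make up less of their families with MAX restored, at 22.0% and 2.38%, against 33.5% and 3.91% in controls, and Cox7a1 and Cox6b2 make up more.

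Both genes of complex IV that rose were minor isoforms with few counts. Cox7a1, the muscle isoform of subunit 7a, had 42, 28 and 42 counts with MAX restored, against 25, 21 and 22 counts in controls (log2 0.60 ± 0.23, edgeR adjusted p = 0.0277). Cox6b2, known from testis, had 16, 17 and 12 counts with MAX restored, against 5, 10 and 6 counts in controls (log2 0.97 ± 0.36, edgeR adjusted p = 0.0228). Neither was called by DESeq2, and without control 1 Cox6b2 no longer passed (edgeR adjusted p = 0.0991). Their shares stayed small. Cox7a1 made up 6.51% ± 1.58 of Cox7a1 and Cox7a2 with MAX restored and 4.01% ± 0.381 in controls, and Cox6b2 made up 0.820% ± 0.123 of the 6b pair with MAX restored and 0.368% ± 0.128 in controls (SD, n = 3 each). The testis genes Cox7b2 and Cox8c were at 0 in all libraries, Cox8b had 1, 1 and 3 counts with MAX restored and 0 in each control, and Cox4i2, the lung isoform of subunit 4, had 1, 0 and 2 counts with MAX restored and 0, 1 and 1 in controls.

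The widely used subunits of complex IV had smaller differences. Cox5a, which shares 32.05% of its 50-base windows with transcripts of other genes, fell by 0.39 on the log2 scale, to 75.1 ± 2.86 CPM with MAX restored, against 98.6 ± 7.26 CPM in controls (SD, n = 3 each; edgeR adjusted p = 3.01e-06). Cox5b, Cox6b1, Cox8a and Cox7a2 fell by 0.23, 0.18, 0.16 and 0.13. Cox4i1, the most abundant gene of the complex per exon length, did not pass, at 431 ± 17.1 CPM with MAX restored and 452 ± 9.31 CPM in controls (SD, n = 3 each). Cox7c, Cox6c and Cox7b, with -0.24, -0.04 and 0.00, did not pass either. Cox7a2l, which is a factor of respiratory supercomplexes and not a subunit, fell to 13.6 ± 0.726 CPM with MAX restored, against 18.6 ± 1.85 CPM in controls (SD, n = 3 each; log2 -0.45).

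In complex V, the ATP synthase, 8 of 17 genes fell, 1 rose and 8 did not pass, and with the length trend removed 4 were lower and 6 higher. Without control 1, 6 were lower and 3 higher, with Atp5j and Atp5j2 joining Atp5g3. Without the 7 genes that share over 10% of their exon bases or sequence with another gene, 5 were lower. Subunit c, which forms the ring that protons turn, is encoded by 3 genes that make the same mature protein with different import signals, and these went apart. Atp5g1 had 6.72, 6.51 and 8.31 CPM with MAX restored, against 11.2, 10.8 and 10.7 CPM in controls, a 1.53-fold fall (log2 -0.61 ± 0.13, edgeR adjusted p = 0.000295). Atp5g3 had 249, 241 and 243 CPM with MAX restored, against 236, 221 and 211 CPM in controls (log2 0.13 ± 0.04, edgeR adjusted p = 0.0125), and was the only gene of the complex that rose. Both kept their groups separate. Atp5g2 had 0.252, 1.07 and 1.37 CPM with MAX restored, against 0.295, 1.34 and 1.49 CPM in controls and did not pass. Atp5g2 shares 38.35% and Atp5g1 11.1% of their 50-base windows with transcripts of other genes. Both may have lost reads, so their levels and the shares of the family are uncertain. Of the summed TPM of the 3 genes, Atp5g3 made up 97.2% ± 0.533 with MAX restored and 95.6% ± 0.424 in controls, and Atp5g1 made up 2.38% ± 0.321 with MAX restored and 3.91% ± 0.105 in controls (SD, n = 3 each).

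**Figure D5:**
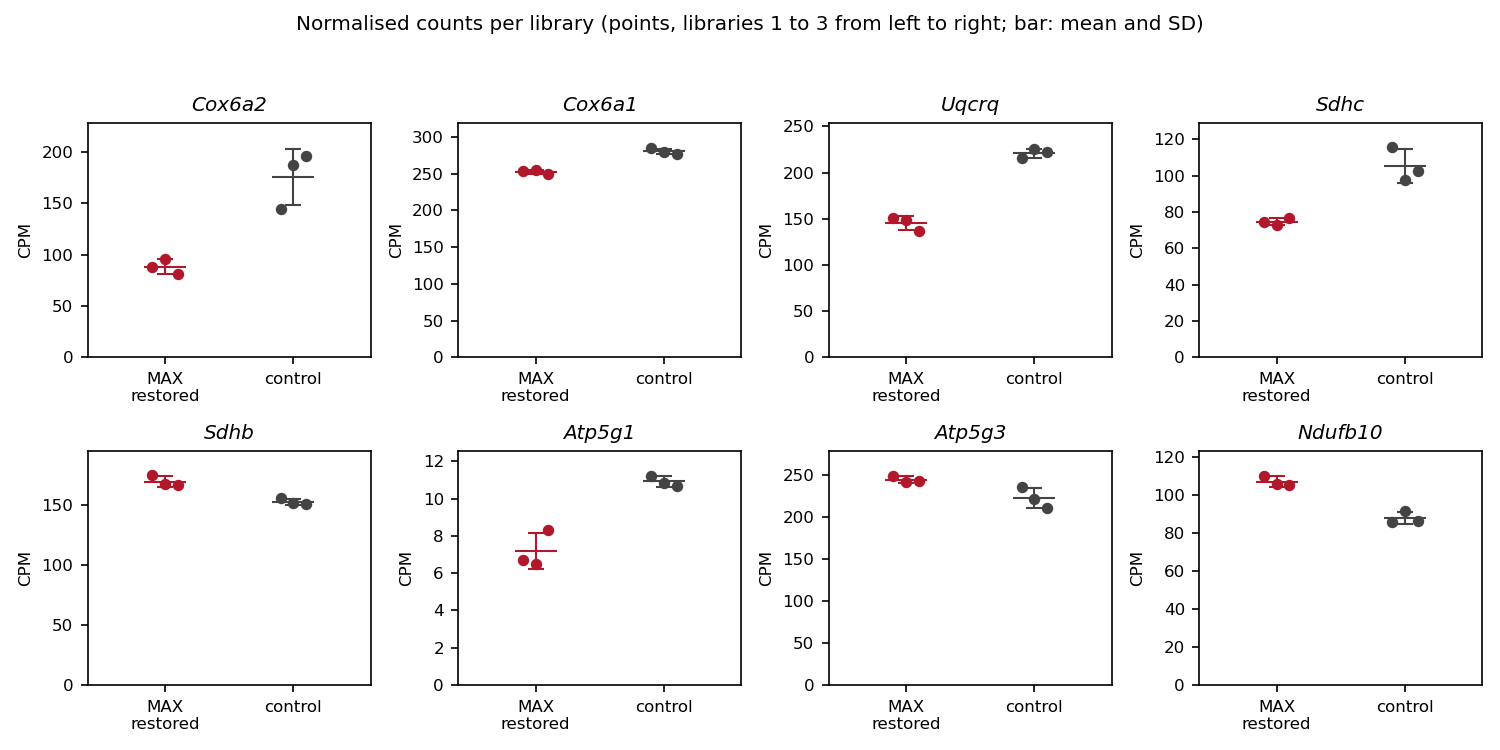
CPM of 8 subunit genes in each library (points, libraries 1 to 3 from left to right), with mean and SD bars, MAX restored in red and control in grey, each axis starting at 0. Cox6a2, Cox6a1, Uqcrq, Sdhc and Atp5g1 are lower and Sdhb, Atp5g3 and Ndufb10 higher with MAX restored, with no overlap between the groups. Of all 12664 genes tested, 4285 were lower and 4209 higher without overlap.

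The F1 head of the ATP synthase, which makes ATP, had small differences in its abundant subunits. Atp5b, the catalytic beta subunit and the most abundant of the subunit genes per exon length, had 1287, 1276 and 1293 CPM with MAX restored, against 1362, 1343 and 1317 CPM in controls. Its groups were separate, but it did not pass (log2 -0.06 ± 0.03, edgeR adjusted p = 0.0778). Atp5a1, the alpha subunit, had 582, 607 and 604 CPM with MAX restored, against 664, 657 and 636 CPM in controls (log2 -0.13 ± 0.03, edgeR adjusted p = 0.00243). Of the central stalk, Atp5d, the delta subunit, fell most, with 175, 178 and 164 CPM with MAX restored, against 245, 216 and 211 CPM in controls (log2 -0.38 ± 0.05, edgeR adjusted p = 4.3e-06). Atp5c1, the gamma subunit, fell by 0.25 and Atp5e, the epsilon subunit, gave -0.11 and did not pass.

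In the peripheral stalk and the membrane part, Atp5l fell by 0.46 and Atp5h by 0.30 on the log2 scale. Atp5l is uncertain, since 84.9% of its 50-base windows also occur elsewhere in the transcript set searched, and without control 1 it no longer passed (edgeR adjusted p = 0.0631). Atp5f1 (-0.14), Atp5o (-0.02), Atp5k (0.05), Atp5j (0.07) and Atp5j2 (0.10) did not pass. Atp5s and Atp5sl fell by 0.37 and 0.18, and both are matches by name that are not subunits. In Atp5s the groups overlapped, and without control 1 it did not pass (edgeR adjusted p = 0.111). Leaving out Atp5s, Atp5sl and Cox7a2l, and counting Ndufa4 in complex IV, gave 43 genes lower and 7 higher.

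The genes that were lower under every one of the 16 alternatives numbered 19. These were Ndufa6, Ndufc2, Ndufb9, Ndufv1, Ndufa10, Ndufa9, Ndufs4 and Ndufv2 of complex I, Sdhc, Sdhd and Sdha of complex II, Uqcrq of complex III, Cox6a2, Cox7a2l and Cox5a under complex IV, and Atp5g1, Atp5d, Atp5c1 and Atp5a1 of complex V. Ndufs4 did not pass when the length trend was removed and control 1 left out together. The genes that were higher under each of the 16 were Ndufb10, Ndufb7 and Sdhb. All 3 genes of this second group are short, with summed exon lengths of 635, 533 and 1073 bases. How many of all genes tested kept their call under all 16 was not counted, so these numbers have no share to stand beside. In the main fit 32.3% of all genes tested were lower and 31.2% higher.

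The region before the start of the genes was searched for the E-box CACGTG because it is the sequence that MYC and MAX bind together. Starts were found for 69 of the 84 genes, and 7 of these held the E-box in the 250 bases before the start (RefSeq, GRCm38.p6), which is 10.1%, against 6.86% of all 27025 promoters in the table. Complex V held 5 of the 7 and complex I the other 2. Of the 7 genes, Ndufv1, Ndufa7, Atp5g1, Atp5l and Atp5sl fell, Atp5g3 rose and Atp5f1 did not pass. Of all 69 genes with a start, 37 fell, 7 rose and 22 did not pass. The stretches around the E-box of Atp5g1 (chr11:96075658-96075715), Atp5l (chr9:44920872-44920929), Ndufv1 (chr19:4012907-4012964) and Atp5g3 (chr2:73911547-73911576) are shown because the first 3 fell and the last rose, all on the minus strand of GRCm38.p6, 5′ to 3′, with the E-box in capitals.
Atp5g1: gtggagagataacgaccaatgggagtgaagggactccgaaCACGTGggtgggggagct
Atp5l: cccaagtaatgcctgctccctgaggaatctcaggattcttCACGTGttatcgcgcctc
Ndufv1: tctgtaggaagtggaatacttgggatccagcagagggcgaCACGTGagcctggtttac
Atp5g3: acccctgcctggCACGTGcaaggagcgagg

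The E-box thus stood before genes that went in either direction. In Atp5g1 it began at position -44 from the start, in Atp5l at -147, in Ndufv1 at -169 and in Atp5g3 at -238. A motif of NRF1, a factor known to drive respiratory chain genes, was searched as GCGCANGCG on both strands and stood before 14 of the 69 genes (20.3%, against 5.86% of all promoters). Of these 14 genes 9 fell, 4 did not pass, 0 rose and Ndufs5 was not tested. Among all 69 genes with a start, 37 fell, 22 did not pass and only 7 rose, and a link of the motif with the calls was not tested. Sdha and Sdhd of complex II were among them, and their matches (chr13:74350318-74350378 and chr9:50603908-50603968, GRCm38.p6, minus strand, 5′ to 3′) are shown with the motif in capitals because both genes fell under all 16 alternatives. Sdhd held 1 match, at -79, and Sdha held 3, at -98, -55 and -10, of which the one at -98 is shown.
Sdha: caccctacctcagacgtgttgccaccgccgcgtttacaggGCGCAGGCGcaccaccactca
Sdhd: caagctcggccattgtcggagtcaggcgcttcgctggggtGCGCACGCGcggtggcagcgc

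A motif of ETS factors such as GABP, CCGGAAG, stood before 12 of the 69 (17.4%, against 7.83% of all promoters), the ESRRA motif TCAAGGTCA before 1 (1.45%, against 0.422%) and the YY1 motif AAGATGGCG before 2 (2.90%, against 0.711%), each on either strand. The E-box reads the same on both strands, and matches of different motifs may overlap. All promoters include those of genes not tested here, while nearly all subunit genes with a start were tested, so these shares compare unlike sets. A match describes the letters and is not a binding site.

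The factors that build the complexes mostly fell as well. Of 48 tested assembly factors, 28 (58.3%) were lower and 20 did not pass, with a median of -0.22 on the log2 scale. Over all genes tested, 32.3% were lower and 31.2% higher. Of the assembly factors, 0 were higher by edgeR, by DESeq2, by limma voom or at an unadjusted p under 0.05. With the length trend removed, 22 of them were lower and 4 higher, against 3894 and 3962 of all 12664 genes tested. For complex I 9 of 16 fell, led by Ndufaf4 (log2 -0.73), which acts early in its assembly. Ndufaf4 had 35.5, 34.8 and 38.1 CPM with MAX restored, against 64.1, 56.7 and 58.7 CPM in controls (edgeR adjusted p = 4.49e-09), with the groups far apart. Ecsit and Tmem186 fell by 0.60 and 0.56. Among the complex I factors that did not pass were Ndufaf1, Acad9 and Tmem126b, with log2 fold changes of 0.09, -0.01 and -0.03. For complex II 1 of 4 fell, a smaller share than over all genes. It was Sdhaf1 (log2 -0.54), which helps place iron-sulfur clusters in Sdhb. For complex III all 6 fell, among them Bcs1l (log2 -0.57), which inserts the Rieske protein, Uqcc2 (log2 -0.38) and Uqcc1 (log2 -0.22).

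For complex IV 9 of 19 tested factors fell, with Lrpprc, which keeps mitochondrial messenger RNAs stable, at log2 -0.49, the copper chaperone gene Cox17 at -0.40 and the insertase gene Cox18 at -0.44. For complex V all 3 fell, Tmem70 (log2 -0.58), Atpaf1 (log2 -0.47) and Atpaf2 (log2 -0.28), which help assemble the ATP synthase. Atp5sl counts both among the 84 genes and among the complex I factors.

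Electron carriers and subunits whose names the pattern misses were lower in 4 of 9 (44.4%, against 32.3% of all genes tested). Among them were Etfa (log2 -0.62) and Etfdh (log2 -0.35), which pass electrons from fatty acid oxidation to ubiquinone, and Cyc1 (log2 -0.30), the cytochrome c1 of complex III. Etfb (log2 0.05) was among those that did not pass. With the length trend removed, 3 were lower and 1 higher. TCA cycle genes were lower in 9 of 13 (69.2%), with Suclg1 at log2 -0.44, Idh3a at -0.32 and the citrate synthase gene Cs at -0.20. With the length trend removed, 7 TCA cycle genes were lower. Regulators of mitochondrial gene expression were lower in 7 of 13 (53.8%). Pprc1, a coactivator related to PGC-1, had 73.7, 73.9 and 75.1 CPM with MAX restored, against 124, 137 and 146 CPM in controls (log2 -0.87 ± 0.06, edgeR adjusted p = 5.68e-11). The gene Peo1, which encodes the helicase of mitochondrial DNA, fell by 0.61 and the mitochondrial RNA polymerase gene Polrmt by 0.38. Gabpa fell by 0.26. Among the regulators that did not pass were Nrf1 (-0.04), Esrra (-0.02), Gabpb1 (-0.02) and Ppargc1b (0.15). With the length trend removed, 8 of the 13 regulators were lower. In these 3 lists 0 genes were higher by edgeR, by DESeq2, by limma voom or at an unadjusted p under 0.05. Over all genes tested, 31.2% were higher by edgeR.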

How the data were processed

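Each library has 1 deposited file of raw, whole-number counts per gene symbol. Counting ignored strand and used exons of an mm9 annotation, per the file headers. Tools listed in the submitters' processing notes are bcl2fastq 1.8.4, STAR 2.5.2a and, for featureCounts, Subread 1.6.0. The library kit marks no strand, per the labels' protocols, so reads in overlapping exons cannot be told apart by strand. Overlapping genes and members with near copies may both have lost reads.

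Groups came from the labels. Genes were kept with filterByExpr at a minimum count of 10, scaled by TMM and tested with edgeR 4.0.16 (quasi-likelihood, group only, two-sided, Benjamini-Hochberg over all 12664 genes) in R 4.3.3, with a biological coefficient of variation of 4.28%. CPM uses the TMM scaling, except for the cell type markers, whose CPM is scaled to total counts alone. TPM uses the exon lengths in the files. Alternatives were other scalings, filters and a threshold of 0.01, DESeq2 1.42.0, limma 3.58.1 voom, the replicate number as a block, a lowess trend with exon length, and each library left out. The genes, the lists beside them and the rule for named genes were chosen with earlier results of these data known. The rule named all tested genes of complexes II and III, the 5 lowest and 3 highest calls of the other complexes, their core subunits and the isoform families. The code was tested on simulated data. No pair of replicates agreed within sampling noise. Shared sequence was searched in GRCm38 transcripts in windows of 50 bases, and neighbours were taken from mm9 order. A member of complex I is counted in the totals but is not reported here by name.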

Additional observations from a re-analysis of the deposited data

How the results depend on the processing

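Removal of the gene length trend changed most. It gave 20 subunit genes lower and 22 higher (median -0.0323), with 9 and 8 in complex I (-0.0326), 1 and 2 in complex III (-0.0773), 3 and 5 in complex IV (0.0609) and 4 and 6 in complex V (-0.0738), while complex II had a median of -0.23. Among genes called in either fit, signs turned for Uqcr11 (0.21), Ndufs6 (0.0101), Cox6c (0.19), Atp5o (0.17), Ndufa2 (0.0278), Cox8a (0.0634), Ndufb8 (0.0281), Ndufa8 (0.14), Atp5e (0.15), Cox6a1 (0.0792), Ndufa4 (0.16), Ndufa3 (0.00395), Cox6b1 (0.0547), Cox4i1 (0.12) and Cox7a2 (0.0583). With the trend removed, 3894 of all 12664 genes tested were lower and 3962 higher. The cause of the length trend was not tested.

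Removal of the trend together with control 1, chosen after seeing the data, gave 21 lower and 23 higher (median -0.00755), with 9 and 9 in complex I (-0.00834), -0.23 in complex II, 1 and 2 in complex III (-0.0560), 3 and 5 in complex IV (0.0658) and 5 and 6 in complex V (-0.0188). Of all 12812 genes tested in this setting, 4067 were lower and 4061 higher. Among genes called in either fit, signs then turned for Uqcr11 (0.22), Cox6c (0.30), Atp5o (0.18), Ndufa2 (0.0538), Cox8a (0.0104), Ndufb8 (0.00257), Ndufa8 (0.15), Atp5e (0.21), Ndufb5 (0.0456), Cox6a1 (0.0635), Ndufa4 (0.19), Ndufb2 (0.0306), Cox6b1 (0.0502), Cox4i1 (0.11), Cox7a2 (0.0680) and Ndufb11 (0.10).

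Genes called higher numbered 4 by DESeq2, with 0 in complex IV, and 3 at a threshold of 0.01, with 0 in complexes IV and V. At least 50 counts in 3 libraries left 0 higher in complex IV, since both of its genes have fewer. With 1 library left out in turn, 38 to 46 subunit genes were lower and 3 to 8 higher (3 without control 3 or MAX restored 1), with medians of -0.20 to -0.15. Higher calls ranged over 0 to 1 in complex IV and 0 to 3 in complex V (3 without control 1), and the complex I median over -0.24 to -0.16. Without genes that share over 10% of exon bases or sequence, chosen after seeing the data, the median was -0.24 in complex III and -0.0412 in complex IV, with 3 lower there and 5 lower in complex V. With the replicate block, 47 were lower and 7 higher. The replicate numbers did not pair the libraries (correlations of 0.0035, 0.0355 and -0.0241), and the call of 1 subunit gene changed. The other scalings shifted the median of all genes by at most 0.03. Genes with few counts, such as Cox6b2 and Atp5g2, are limited by depth, and Atp5g2 also by sequence shared with other genes.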
